A study of Mus musculus with 9 samples.

Results

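Lifr, the gene for the leukemia inhibitory factor receptor, was described here as 1 gene of the 5608 listed in the RNA-seq table (NCBI gene 16880), and was found by its symbol. It was selected on its measured level: earlier results of these data had it as 1 of the 3 genes with the lowest log2 fold change of IF vs FED livers. Its own levels are therefore a description, with no test. Livers of 9 wild-type C57BL/6 J mice were sequenced, 3 per group. FED mice had the standard diet ad libitum. IF mice had food withheld for 24 h, 2 times a week, and FMD mice received the calorie-restricted fasting-mimicking diet for 3 days. Both were killed on the day after the last day of restriction. The feeding state, the length of the restriction and, for FMD, the composition of the diet thus differed between the groups together. The values are TPM, the share of a library's transcripts after the authors' normalization for transcript length, and no library's depth can be read from them. The listed genes held 26.3% to 29.3% of all TPM in FED, 32.9% to 34.9% in IF and 34.9% to 43.0% in FMD libraries. Tests used limma on log2(TPM + 1) and covered the 4665 genes whose TPM averaged 1 or more. Called genes had a p, adjusted by Benjamini-Hochberg over all of them, below 0.05 and a change of more than 1.5-fold in either direction on that scale, which understates the change of low genes. Against FED, the median log2 fold change of these genes was 0.24 in IF and 0.48 in FMD. Values after scaling, for which every library was set to the same median ratio to the geometric mean of all libraries, are given where this shift matters. The scaling used listed genes alone and takes their median change to be about 0, which was not tested. RNA came from 3 mice per group, so the spread within a group is between mice.

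LIFR is a class I cytokine receptor chain without enzyme activity of its own. It binds LIF and, with further chains, ciliary neurotrophic factor and cardiotrophin-1, and signals as a pair with gp130, the chain encoded by Il6st that most interleukin 6 (IL-6) family receptors share. JAK kinases bound to the pair phosphorylate STAT3, which in hepatocytes acts on acute phase protein genes and on Socs3, a feedback inhibitor of gp130. Mouse liver is known to release a soluble form of LIFR, made from transcripts that end before the membrane-spanning part.

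Lifr lies on chromosome 15, on the forward strand. The GENCODE M21 annotation lists 8 transcripts, of which 3 have a coding length of 3276 bases (1092 codons) and 3 of 2157 bases (719 codons). Of the shorter ones, Lifr-202 and Lifr-207 are annotated as protein-coding and Lifr-206 as subject to nonsense-mediated decay. No other gene of that annotation overlaps it on either strand (0 genes). The table gives 1 value per gene, so the long and short forms cannot be told apart. RefSeq gives Lifr 2 start sites, and the 250 bases before each are shown because the values below do not separate transcripts by start. They are written 5′ to 3′ on the forward strand of build GRCm38.p6, at chr15:7129322-7129571 and chr15:7140292-7140541. The TPM values were made on build mm39. Capitals mark matches to the GC box, searched as GGGCGG on both strands, or to the CCAAT box, likewise searched by its letters.
Lifr, first start: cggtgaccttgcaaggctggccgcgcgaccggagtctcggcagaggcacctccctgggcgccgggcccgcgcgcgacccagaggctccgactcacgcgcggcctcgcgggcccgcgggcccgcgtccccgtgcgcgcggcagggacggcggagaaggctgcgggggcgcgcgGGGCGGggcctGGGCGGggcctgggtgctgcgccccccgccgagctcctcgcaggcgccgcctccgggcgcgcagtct
Lifr, second start: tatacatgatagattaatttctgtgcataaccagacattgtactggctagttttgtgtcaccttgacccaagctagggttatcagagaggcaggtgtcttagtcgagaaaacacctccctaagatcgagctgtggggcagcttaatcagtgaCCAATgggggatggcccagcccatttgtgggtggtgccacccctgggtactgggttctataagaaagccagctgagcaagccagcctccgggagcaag
The window before the first start had a GC content of 82.4% and 43 CpG dinucleotides, more than 99.3% of the 32851 RefSeq windows of the same length. The window before the second start had a GC content of 50.8% and 3 CpG. A GC box was found 2 times in the first window, against 32.7% of all windows with at least 1 match. A CCAAT box was found 1 time in the second, against 33.8% of all windows. Neither window held TTCNNNGAA (the STAT motif, in 7.02% of all windows), TGTTTAC (the FOXO motif, 3.17%), the PPAR direct repeat (0.0335%) or TATAAA (12.4%), each searched on both strands. This says only that these letters are not in these windows.

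Lifr mRNA was high in FED livers and much lower in both diet groups. In FED mice 1, 2 and 3 it was at 99.1, 165 and 121 TPM. In IF mice 1, 2 and 3 it was at 25.2, 24.8 and 28.8 TPM. In FMD mice 1, 2 and 4 it was at 18.6, 16.9 and 24.4 TPM. Every FED mouse was above every IF and FMD mouse, and the lowest FED value was 3.44 times the highest IF value and 4.06 times the highest FMD value. Group means were 128 ± 33.3 TPM for FED, 26.2 ± 2.21 TPM for IF and 20 ± 3.94 TPM for FMD mice (SD, n = 3 each). The FED mean was thus 4.89 times the IF mean and 6.43 times the FMD mean. On the TPM scale the spread relative to the mean was widest in FED mice, with a coefficient of variation of 25.9%, against 8.40% in IF and 19.7% in FMD mice. After scaling it was widest in FMD mice, at 29.5% against 26.2% in FED and 12.1% in IF mice.

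On the log2(TPM + 1) scale, the limma fit gave Lifr a difference of -2.22 (standard error 0.19) for IF vs FED and of -2.61 (standard error 0.19) for FMD vs FED. Both comparisons use the same FED libraries. With each library left out in turn, these values lay between -2.39 and -2.03 and between -2.78 and -2.42. Relative to the median of all genes tested, Lifr was lower by 2.46 in IF (difference -2.46) and by 3.09 in FMD (difference -3.09). After scaling, its differences were -2.50 and -3.15, and the FED mean was 5.93 times the IF mean and 9.32 times the FMD mean. The order of the groups was FED, IF, FMD, but IF and FMD were close neighbours. The lowest IF mouse, at 24.8 TPM, was 1.02 times the highest FMD mouse, at 24.4 TPM. The difference of FMD vs IF was -0.39 (standard error 0.19), or -0.65 after scaling, and between -0.54 and -0.29 with each library left out. In bulk liver, fewer cells that express Lifr and less Lifr mRNA per cell cannot be told apart.

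**Figure D1:**
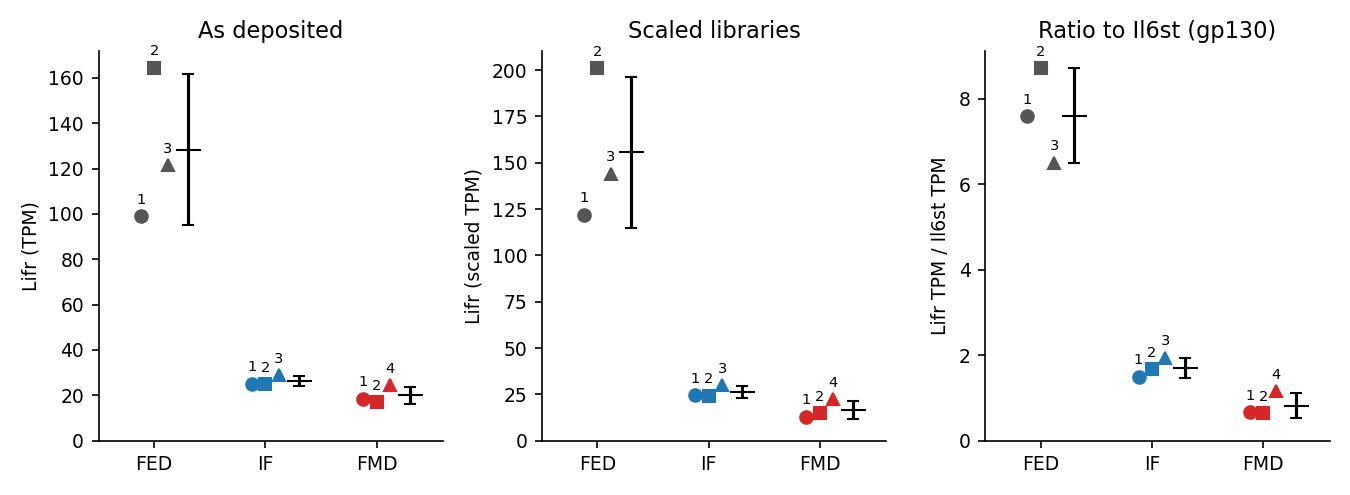
Lifr in the 9 libraries as TPM (left), as scaled TPM (middle) and as the ratio of Lifr to Il6st TPM in the same library (right), by group; points carry the replicate number and black bars show mean ± SD (n = 3). All 3 FED mice sit at 99.1 TPM or above and all 6 mice of the diet groups at 28.8 TPM or below.

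Lifr had the third-lowest of the 4665 log2 fold changes in IF vs FED and the fourth-lowest in FMD vs FED. Just ahead of it in IF stood Fabp5, a fatty acid-binding protein, at -3.90, and just behind it Sdf2l1, a chaperone partner of the endoplasmic reticulum, at -1.95. In FMD, Fabp5 at -2.84 and Cela1, an elastase gene, at -2.56 stood next to it. In FMD vs IF, 111 genes had a lower value than Lifr. Groups of 3 that do not overlap were common in this table. Lower without overlap were 6.77% of the genes tested in IF vs FED, 2.62% in FMD vs FED and 3.04% in FMD vs IF, and Lifr was among them each time. Higher without overlap were 53.8%, 68.0% and 33.6%. Within each library, 5.40% to 8.35% of the listed genes were above Lifr in FED, 21.8% to 25.3% in IF and 26.8% to 38.1% in FMD mice.

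The partner chain Il6st (NCBI gene 16195) was not called in either diet group against FED. Il6st was at 13.1, 18.9 and 18.7 TPM in FED, at 16.9, 14.8 and 14.8 TPM in IF and at 28.2, 26.3 and 21.2 TPM in FMD mice 1, 2 and 4. IF and FED overlapped, and every FMD mouse was above every FED and IF mouse. Of all genes tested, 68.0% were likewise higher without overlap in FMD vs FED and 33.6% in FMD vs IF. The log2 fold change of Il6st was -0.10 in IF vs FED (limma adjusted p = 0.666) and 0.56 in FMD vs FED (adjusted p = 0.0116), neither of which passed both limits, and 0.66 in FMD vs IF (adjusted p = 0.0380), which did. After scaling, Il6st differed by 0.03 in FMD vs FED (adjusted p = 0.893). The FMD vs IF call was lost after scaling (0.40, adjusted p = 0.118) and without FED replicate 2 or 3, any IF replicate, or FMD replicate 1 or 2.

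A ratio of both chains within a library does not depend on the scaling of that library. Lifr was at 7.59, 8.71 and 6.5 times Il6st in FED mice 1, 2 and 3, on the TPM scale. In IF mice it was at 1.49, 1.67 and 1.94 times Il6st, and in FMD mice 1, 2 and 4 at 0.660, 0.643 and 1.15 times. Lifr mRNA thus exceeded gp130 mRNA in all FED and IF mice and in 1 of the 3 FMD mice. The ratio averaged 7.60 ± 1.11 over FED, 1.70 ± 0.226 over IF and 0.818 ± 0.288 over FMD mice (SD, n = 3 each), and no FMD mouse overlapped an IF mouse.

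Of the other IL-6 family receptor chains, the table lists Il11ra1 and Osmr. Il11ra1 (NCBI gene 16157), the specific chain for IL-11, was at 30.2 ± 4.58 TPM in FED, 25.5 ± 1.26 TPM in IF and, for FMD mice, 28.0 ± 5.63 TPM (SD, n = 3 each). Its log2 fold change was -0.22 in IF (limma adjusted p = 0.311) and -0.11 in FMD (adjusted p = 0.535). After scaling it was called lower in FMD vs FED (-0.65, adjusted p = 0.00446). Osmr, the oncostatin M receptor and the next gene to Lifr on one side, was at 0.380 to 0.530 TPM in FED mice and at 0.460 to 0.790 TPM in IF mice. FMD mice 1, 2 and 4 had 2.11, 1.53 and 0.510 TPM. Its mean was under 1 TPM, so it was not tested, and the groups overlapped. Of 12 ligand genes of the family, 0 were tested. Il6ra, Cntfr, Il27ra and Il31ra were not analysed here.

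**Figure D2:**
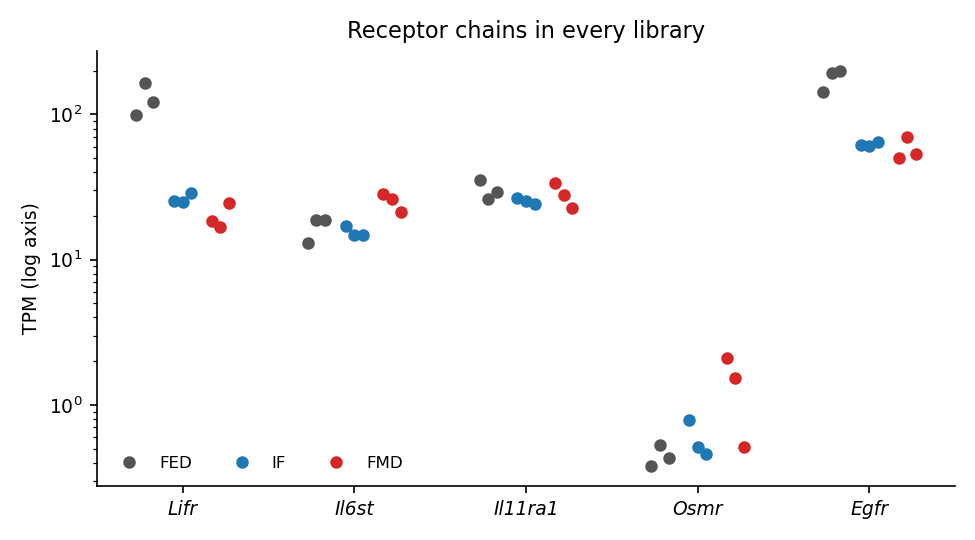
TPM (log axis) of Lifr, the other listed IL-6 family receptor chains Il6st, Il11ra1 and Osmr, and Egfr, with 1 point per library and colours for FED, IF and FMD. Lifr and Egfr are lower in all IF and FMD libraries than in any FED library, while Il6st and Il11ra1 of IF and FED mice overlap.

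The intracellular part of the pathway was examined with lists of JAK, STAT and adaptor genes, inhibitors and targets. Together with the ligands and receptor chains these lists hold 91 genes besides Lifr, of which 43 were in the table and 40 were tested. In IF vs FED, 6 of the 40 were called higher and 2 lower, where 10.3% and 1.59% of all genes tested were (11.9% together). In FMD vs FED, 16 were called higher and 2 lower, where 35.5% and 1.59% of all genes were (37.1% together). In FMD vs IF, 6 were called higher and 1 lower, against 4.67% and 0.472% (5.14% together). With scaled libraries, 5 were called higher and 3 lower in IF, where 7.14% of all genes were called (3.69% higher, 3.45% lower). In FMD vs FED these counts were 7 and 4, beside 11.1% of all genes (5.49% and 5.64%), and in FMD vs IF 1 and 1, beside 2.23% (1.11% each way). The median log2 fold change of the 40 genes was 0.21 in IF and 0.57 in FMD, beside 0.24 and 0.48 for all genes.

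Of 20 JAK, STAT and adaptor genes, 8 were tested. None was called in IF vs FED (0 of 8), where 11.9% of all genes tested were. In FMD vs FED 4 were called higher, where 35.5% of all genes were. Jak1, a kinase bound to gp130, rose by 0.66 on the log2 scale (limma adjusted p = 0.00666). Ptpn11, the SHP2 phosphatase that links gp130 to the MAPK cascade, and Map2k2, a kinase of that cascade, each rose by 0.76. Pik3ca, a catalytic subunit of PI3 kinase, rose by 0.65. These shifts were near the median of all genes, and after scaling 0 of the 4 were called. The call of Jak1 was also lost without FMD replicate 1, at 0.45. Stat3 (NCBI gene 20848), the main transcription factor of the pathway, was at 28.9 ± 3.95 TPM in FED, 32.5 ± 2.77 TPM in IF and, for FMD mice, 36.3 ± 5.27 TPM (SD, n = 3 each), with log2 fold changes of 0.17 (adjusted p = 0.403) and 0.32 (adjusted p = 0.0719).

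Socs3 (NCBI gene 12702), the inhibitor that STAT3 induces, rose in both diet groups. It was at 1.47, 2.67 and 2.28 TPM in FED, at 5.86, 3.96 and 6.94 TPM in IF and at 5.30, 7.22 and 7.71 TPM in FMD mice 1, 2 and 4. All IF and FMD mice were above all FED mice. The log2 fold change was 1.06 in IF (limma standard error 0.21, adjusted p = 0.00600) and 1.31 in FMD (standard error 0.21, adjusted p = 8.0e-04). It remained called after scaling, at 0.87 (adjusted p = 0.0437) and 0.88 (adjusted p = 0.0309). Among the 16 inhibitor genes, 10 were tested. With Socs3 included, 1 was called higher in IF and 3 in FMD, beside 10.3% and 35.5% of all genes. Pias2 and Pias4, which encode inhibitors of activated STAT, rose in FMD by 0.81 and 0.63 and were not called after scaling. Pias4 was not called without FED replicate 2. The other 7 genes tested, among them Socs5, Socs6, Socs7 and the phosphatase gene Ptpn2, were called in none of the 3 comparisons.

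The 36 STAT3 and acute phase targets, of which 20 were tested, moved both ways. In IF vs FED, 5 were called higher and 2 lower, beside 10.3% and 1.59% of all genes, and in FMD vs FED 9 and 2, beside 35.5% and 1.59%. After scaling the counts were 4 and 3 in IF, beside 3.69% and 3.45% of all genes, and 6 and 3 in FMD, beside 5.49% and 5.64%. The genes that fell were Orm1 and Orm2, which encode the acute phase plasma protein orosomucoid and are close copies of each other. Orm1 (NCBI gene 18405) was at 2107, 1371 and 1554 TPM in FED, at 872, 991 and 720 TPM in IF and at 586, 389 and 365 TPM in FMD mice 1, 2 and 4. The 3 groups did not overlap. Lower without overlap were 6.77% of all genes tested in IF vs FED, 2.62% in FMD vs FED and 3.04% in FMD vs IF. The log2 fold change of Orm1 was -0.95 in IF (limma adjusted p = 0.0113), -1.92 in FMD (adjusted p = 1.4e-04) and -0.97 in FMD vs IF (adjusted p = 0.0311). The IF call was lost without FED replicate 1 (adjusted p = 0.0513). The FMD vs IF call was lost without FED replicate 3, any IF replicate or FMD replicate 2, at an adjusted p of up to 0.12. For Orm2 the change was -1.94 in IF (adjusted p = 0.0410) and, for FMD mice, -1.89 (adjusted p = 0.0193). It varied widely in FED mice, at 69.4, 17.4 and 29.6 TPM. Its IF call was lost without FED replicate 1 or 3 or any IF replicate (adjusted p up to 0.155), and its FMD call without FED replicate 1 or FMD replicate 2 or 4 (up to 0.0815).

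Other acute phase genes rose or overlapped. Serpina3m, of the antichymotrypsin family of protease inhibitors, rose on the log2 scale by 1.5 in IF (limma adjusted p = 7.1e-04) and by 1.75 in FMD (1.3e-04). Its neighbour Serpina3n rose by 0.87 in FMD (adjusted p = 0.00492) and was not called after scaling. Serpina3m and Serpina3n lie in a cluster of near-identical genes, so their values depend on how reads were shared among them. Lbp, the lipopolysaccharide-binding protein, rose by 0.80 and 0.98, but was not called after scaling, at 0.52 and 0.44. Hp (haptoglobin), Saa3 (serum amyloid A3) and Lcn2 (lipocalin 2) were not called in any comparison. Lcn2 was at 20.7, 2.33 and 12.6 TPM within the FED group. Hpx (hemopexin) changed by -0.45 in IF and -0.44 in FMD and was called only after scaling in FMD (-1.0, adjusted p = 0.022). Fgl1, a fibrinogen-like liver protein, changed by -0.58 in IF and was called only after scaling (-0.86, adjusted p = 0.0426).

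Several regulatory genes of the same list rose. Gadd45g (NCBI gene 23882), a growth arrest and stress gene, was at 1.87, 3.09 and 3.50 TPM in FED, at 25.1, 13.1 and 36.6 TPM in IF and at 38.3, 41.9 and 59.3 TPM in FMD mice 1, 2 and 4. Its log2 fold change was 2.68 in IF (limma adjusted p = 4.4e-04) and 3.64 in FMD (adjusted p = 3.3e-05). Pim3, a serine/threonine kinase, rose by 1.43 and 1.74. Cebpb, a transcription factor of acute phase genes, was called in FMD (1.57, adjusted p = 2.1e-05) but not in IF (0.44, adjusted p = 0.0295). It was the only one of the 40 genes called higher in FMD vs IF with and without scaling (1.13, adjusted p = 0.00195, and 0.86 after scaling, adjusted p = 0.0296). The growth regulator Myc was called in both diet groups, at 1.54 in IF (adjusted p = 0.0320) and, in FMD mice, 2.37 (adjusted p = 0.00192). Its IF call was lost without any 1 FED or IF replicate, at an adjusted p of up to 0.108. In FMD mice Myc was at 23.7 TPM in replicate 1 against 6.72 and 4.70 TPM. Klf6, a zinc finger factor, rose by 1.75 in FMD (adjusted p = 0.00551), with 20.6 TPM in FMD replicate 1 against 7.77 and 3.59 TPM. The interleukin 1 receptor gene Il1r1 rose by 0.92 in FMD and was not called after scaling. Klf6 (1.61), Il1r1 (0.64), the survival factor Mcl1 (0.61) and Pik3ca (0.59) were called in FMD vs IF, but not after scaling. With each library left out in turn, these calls held in 2, 4, 1 and 5 of 9 fits. Mcl1 was called in neither diet group against FED, at -0.25 in IF (limma adjusted p = 0.271) and 0.37 in FMD (adjusted p = 0.0608).

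**Figure D3:**
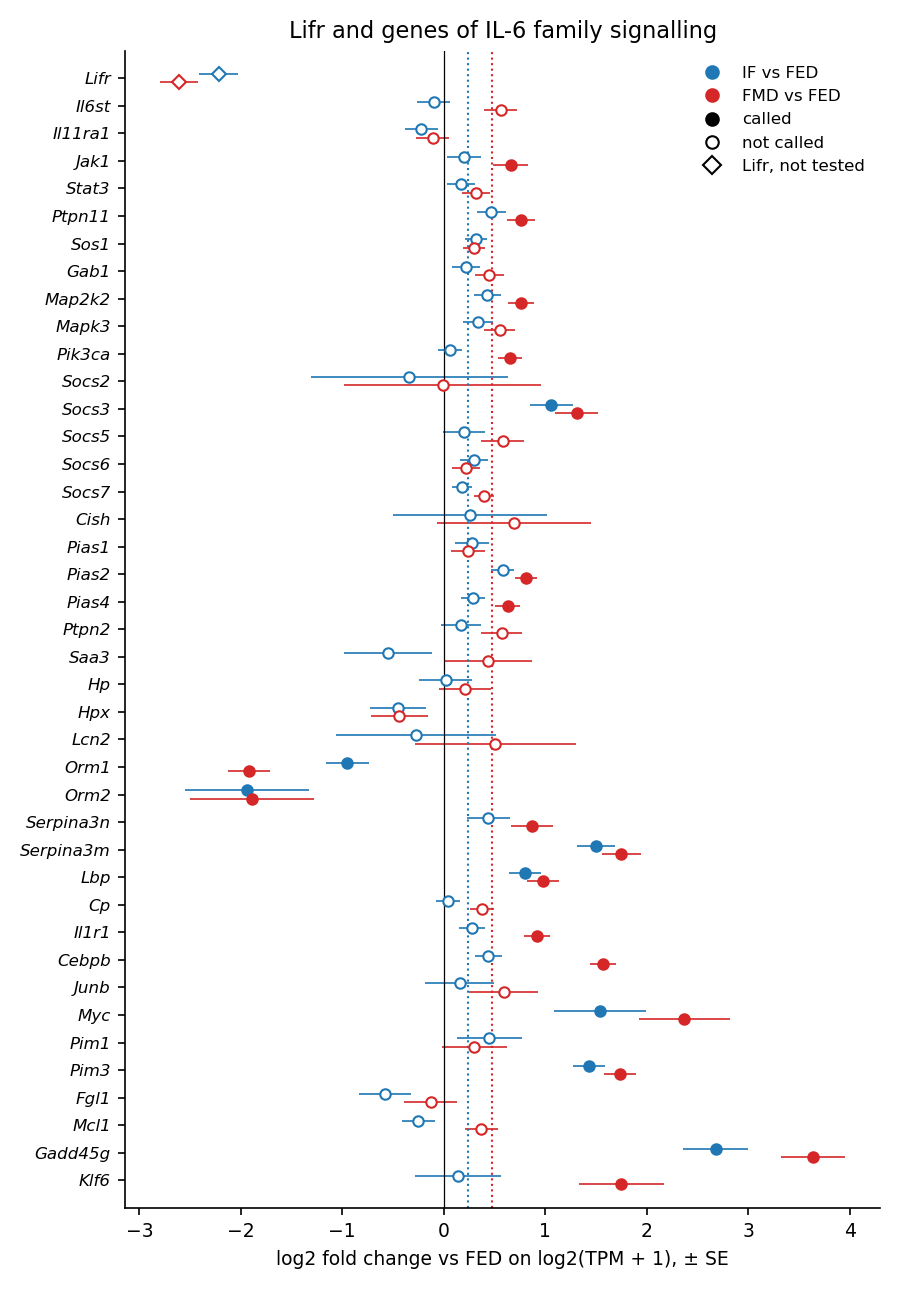
Log2 fold change vs FED, ± standard error of the limma fit, for Lifr (open diamonds, not tested) and the 40 genes tested of IL-6 family signalling, with IF in blue and FMD in red and filled points for called genes. Dotted lines mark the median of all genes, 0.24 in IF and 0.48 in FMD, and Lifr at -2.22 and -2.61 lies below every other gene drawn. Lifr was chosen for its low value in IF vs FED, so its place there follows from that choice.

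Among receptors for other signals, Egfr was called lower in both diet groups. Egfr (NCBI gene 13649), the epidermal growth factor receptor, which hepatocytes carry in large number, was at 144, 193 and 201 TPM in FED. It was at 61.4, 61.0 and 64.9 TPM in IF and at 50.2, 69.6 and 53.2 TPM in FMD mice 1, 2 and 4. Neither diet group overlapped FED, and the diet groups overlapped each other. The log2 fold change of Egfr was -1.49 in IF (limma standard error 0.16, adjusted p = 3.2e-04) and -1.62 in FMD (standard error 0.16, adjusted p = 6.2e-05), and -1.77 and -2.16 after scaling. Lifr was at 0.605 to 0.853 times Egfr in FED mice, 0.406 to 0.443 times in IF mice and 0.243 to 0.459 times in FMD mice on the TPM scale, and this ratio was lower in every IF and FMD mouse than in any FED mouse. Of the 42 genes in the list of growth factor and other signalling receptors, 14 were tested. Egfr was the only one called lower in IF vs FED, and 2 were called higher, Insr (insulin receptor, 0.59) and Ltbr (lymphotoxin beta receptor, 0.70). In FMD vs FED, Egfr was again the only one lower and 5 were higher, by 0.60 to 0.92. Over all genes tested 10.3% were called higher in IF and 35.5% in FMD, near the shares in this list, and 1.59% lower in each. None of these higher calls held after scaling, while Lrp1, a lipoprotein and scavenger receptor, was then called lower in FMD (-0.85, adjusted p = 0.00823). The call of Insr was lost in IF without FED replicate 1 or IF replicate 1 or 2, and in FMD without FMD replicate 2. Without FMD replicate 1, Tgfbr1 and Ltbr were not called in FMD, and Tgfbr2 was not called without any 1 FED replicate or FMD replicate 1 or 2.

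A list of 26 other cytokine receptor genes, most of them class I and II chains like LIFR, had 5 members tested. Il3ra, Il10rb, Ifnar2 and Crlf2 are such chains, while Il17ra belongs to the separate IL-17 receptor family. The median log2 fold change of the 5 was 0.05 in IF and 0.53 in FMD. In IF 0 of the 5 were called, where 11.9% of all genes were. In FMD 1 was called higher, where 35.5% of all genes were, and 0 lower, where 1.59% were. The called gene was Il17ra (0.69, adjusted p = 0.00345), and its call was lost after scaling and without FMD replicate 1. Ifnar2, a chain of the type I interferon receptor, was at 73.1 ± 2.93 TPM in FED, 103 ± 7.63 TPM in IF and, for FMD mice, 106 ± 5.62 TPM (SD, n = 3 each).

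Likeness to Lifr was measured as the root mean square difference between log2(TPM + 1) profiles over the 9 libraries, each gene centred on its mean. Over the other 4664 genes the median of this difference was 1.37. The smallest, 0.319, was that of Cela1, followed by Egfr at 0.486, Gbp10 at 0.492, Sult5a1 at 0.547, Hes6 at 0.621, Acss2 at 0.625, Paxx at 0.640, Atp11a at 0.666 and Rdh11 at 0.673. These are 9 of the 10 nearest genes. After scaling, 9 of the 10 stayed among the 10 nearest, and Orm1 took the place of Atp11a. As these genes were picked for likeness, their values are a description. All 9 had every FED mouse above every IF and FMD mouse, as Lifr had, which largely follows from the picking. The share of all genes tested that was lower without overlap was 6.77% for IF against FED and 2.62% for FMD against FED.

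Cela1, a serine protease of the elastase family, was at 28.1, 30.0 and 23.8 TPM in FED, at 6.65, 7.57 and 5.78 TPM in IF and at 4.17, 4.04 and 3.23 TPM in FMD mice 1, 2 and 4. It showed the same order as Lifr, without overlap of any of the groups. Gbp10, an interferon-inducible guanylate-binding protein, averaged 3.49 ± 0.703 TPM over FED, 0.997 ± 0.466 TPM over IF and 0.393 ± 0.125 TPM over FMD mice (SD, n = 3 each). The Gbp genes are close copies of each other, so this value is uncertain. Sult5a1, of the sulfotransferase family, was at 16.9 ± 3.11, 7.83 ± 0.3 and 4.24 ± 1.21 TPM (SD, n = 3 each). Acss2, which makes acetyl-CoA from acetate in the cytosol, was at 147 ± 33.2, 59.9 ± 5.92 and 45.6 ± 13.8 TPM (SD, n = 3 each). Hes6 encodes a transcriptional regulator, Paxx a factor of DNA end joining, Atp11a a phospholipid flippase and Rdh11 a retinol dehydrogenase.

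**Figure D4:**
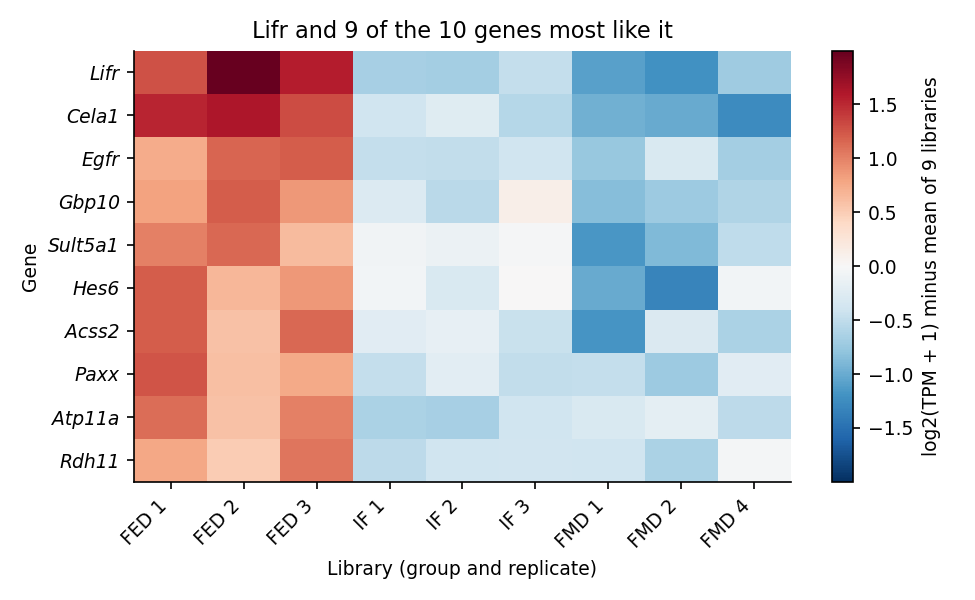
Log2(TPM + 1) of Lifr and 9 of the 10 genes most like it in each of the 9 libraries, as the difference from the gene's mean over all libraries (red above, blue below). Every gene is above its mean in the 3 FED libraries, and Lifr and Cela1 have the strongest contrast. The genes were picked for likeness to Lifr, so their shared place above the mean in FED libraries largely follows from that choice.

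The genes beside Lifr on chromosome 15 were listed by their order alone. In the RefSeq gene order, the 5 nearest listed genes on one side were Osmr, Rictor, Ptger4, Rpl37 and Card6, and on the other Wdr70, Nup155, Nipbl, Nadk2 and Skp2. Of these 10, 7 were tested, with 0 of 7 called lower in IF or FMD vs FED, where 1.59% of all genes were in each. Called higher were 1 of 7 in IF and 2 of 7 in FMD, beside 10.3% and 35.5% of all genes. In IF vs FED the log2 fold changes were -0.26 for Nup155, a nuclear pore protein, and -0.21 for Wdr70, and between 0.12 and 0.59 for the other 5. Nadk2, the mitochondrial NAD kinase, was called higher in IF (0.59, limma adjusted p = 0.00907). Rpl37, a ribosomal protein gene, and Nipbl, a cohesin loader, were called higher in FMD at 0.70 and 0.68. None of these 3 was called after scaling. The mTORC2 subunit Rictor changed by 0.21 and 0.43 and was not called.

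The tissue label was checked against fixed marker lists, of which the table holds few members. Of 12 hepatocyte markers it lists Apoe, at 17019 to 18400 TPM in FED, 25899 to 26647 TPM with IF and 23229 to 27112 TPM with FMD. Of 11 stellate cell markers 4 were listed, and their summed level was 128 to 155 TPM in FED, 206 to 257 TPM with IF and 176 to 337 TPM with FMD. The matrix protein genes Dcn and Ecm1 of this list were called higher in both diet groups, by 0.60 to 0.90, and not after scaling. Of all genes tested, 10.3% were called higher in IF and 35.5% in FMD. The other stellate markers listed, Pdgfrb (0.15 in IF and -0.05 in FMD) and Col1a1 (-0.13 and -0.22), were not called. The 5 listed of 14 periportal markers summed to 5230 to 6271, 4664 to 7842 and 4541 to 8127 TPM. Of these 5, Asl, a urea cycle enzyme, was called higher in IF (1.78, limma adjusted p = 0.00340) and FMD (1.72, adjusted p = 0.00151), and Cyp2f2, a cytochrome P450, was called lower in IF (-0.66, adjusted p = 0.0129) and FMD (-0.73, adjusted p = 0.00288), with and without scaling. Gls2 of the same list was called lower in FMD vs FED only after scaling (-0.75, adjusted p = 0.0128). Of 14 pericentral markers, Glul was at 474 to 578 TPM in FED mice and at 441 to 644 TPM in IF mice, and FMD mice 1, 2 and 4 had 161, 507 and 535 TPM. Oit3, of the 11 endothelial markers, was at 6.58 to 9.28, 6.35 to 8.02 and 8.85 to 17.2 TPM. It was called higher in FMD vs FED (0.73, adjusted p = 0.0145) and FMD vs IF (0.82, adjusted p = 0.0483), but in neither after scaling. Cd68, of the 11 macrophage markers, was at 6.35 to 10.35 TPM in FED mice and at 3.14 to 5.99 TPM in IF mice, and FMD mice 1, 2 and 4 had 64.0, 12.2 and 5.75 TPM. Krt19, of the 7 bile duct markers, was at 0.760 to 4.07 TPM in all libraries, and 0 of 10 lymphocyte and neutrophil markers were listed. FMD replicate 1 thus stood apart in Glul and Cd68, and its Lifr level lay between those of the other FMD mice in TPM (18.6 against 16.9 and 24.4) but was the lowest of them after scaling (13.0 against 14.8 and 22.3). Without it, the difference of Lifr in FMD vs FED was -2.57. The part of cell composition in the Lifr difference was not tested.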

How the data were processed

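The authors had liver RNA of 9 mice made into strand-specific libraries after oligo-dT enrichment (BGI, DNBSEQ). The deposited TPM values, 1 column per library, were used as given. The submitters' processing notes name build mm39. The aligner and annotation are not given in the sources used here. Samples were grouped by their titles. The table holds part of each library, so no depth or counting error is given. Sex and age are not given in the sources used here.

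Values were log2(TPM + 1), and the 4665 genes averaging 1 TPM or more entered 1 limma model (limma 3.58.1, R 4.3.3, eBayes with trend) of all 9 libraries. Tests were adjusted by Benjamini-Hochberg over all genes tested. Python 3.11.15 was used for the descriptions. The fit was tested on simulated data. The gene and the lists were chosen with earlier results of these data known. Text names Lifr, list members that were called or are receptor chains, 9 of the 10 genes most like Lifr (the other is not reported here), its neighbours in rank and on the chromosome, and the marker lists. Other list members, such as Stat3 or Hp, are named for completeness of their list. Alternatives covered pseudocount, filter, scaling, 1 fit per pair, the replicate block, the trend and each library left out. Sequences are from RefSeq (GRCm38.p6), matched by NCBI identifier.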

Additional observations from a re-analysis of the deposited data

How the results depend on the processing

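Lifr was lower in IF and FMD than in FED, and in FMD than in IF, under the other pseudocount, scaling, 1 fit per pair, the replicate block and each library left out. Its fold change is the same under the filters and without the trend, as neither enters the difference of group means of a gene. Scaling moved its log2 difference by more than 1 SD between replicates, to -2.50 in IF and -3.15 in FMD relative to FED, and to -0.65 between FMD and IF. The others of these moved it by less than 1 SD. Scaling changed the number of genes called from 553 to 333 in IF vs FED, from 1732 to 519 in FMD vs FED and from 240 to 104 in FMD vs IF, and the genes called of IL-6 family signalling from 18 to 11 in FMD vs FED and from 7 to 2 in FMD vs IF. Scaling sets the median change to about 0 by construction. FMD vs IF depended most on the processing. With 1 fit per pair of groups 24 genes were called, 1 of them in the pathway, and with no filter on low values 4 in the pathway. With each library left out, the FMD vs IF count ranged from 18 (without IF replicate 2) to 820 (without FMD replicate 4) and the pathway count from 1 to 11. The cause was not tested. Replicate numbers were shared by 7 pairs of libraries from different groups, whose deviations correlated at 0.003 to 0.177, all positive. The 20 pairs with different numbers correlated at -0.202 to 0.211. These overlapping ranges do not decide whether the numbers mark a pairing, and the main fit used none. With the replicate block, 592, 2153 and 772 genes were called in the 3 comparisons, 8, 22 and 10 of them in the pathway, and Lifr differed by -2.22, -2.74 and -0.52. Of the 9 libraries, 5 correlated best with a library of their own number, and FMD replicate 4 had no library of its number in another group. Of the 10 genes most like Lifr, 9 stayed after scaling and 10 with a pseudocount of 0.1. The unknown depth of the libraries limits what can be said of genes near 0 TPM, such as Osmr.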

Other observations

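The next genes in likeness to Lifr, ranks 11 to 20, were Orm1, Cabyr, Ly6e, Ifitm3, Ttc39c, Enho, Apol9a, Hmgcs1, Sdf2l1 and Acly, with root mean square differences of 0.678 to 0.742 on the log2 scale. Hmgcs1 and Acly encode enzymes of cholesterol and acetyl-CoA synthesis, and Ly6e, Ifitm3 and Apol9a are known as interferon-inducible genes. These were chosen after their values were seen and carry no test.

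Growth hormone acts on hepatocytes through another class I cytokine receptor, and its feedback genes varied within every group. Socs2 was at 0.880, 26.3 and 19.4 TPM in FED mice 1, 2 and 3, at 2.47, 8.58 and 14.7 TPM in IF and at 4.58, 5.54 and 27.4 TPM in FMD mice 1, 2 and 4. Cish was at 0.470, 11.1 and 3.10 TPM in FED, at 1.63, 3.68 and 9.15 TPM in IF and at 3.06, 3.63 and 15.1 TPM in FMD mice 1, 2 and 4. Both genes were high and low in the same mice of each group, and neither was called in any comparison. Of the 40 growth hormone-responsive genes listed, 3 were tested, and the third, Selenbp2, fell by 5.25 in IF and fell by 6.05 in FMD on the log2 scale (limma adjusted p = 4.6e-06 and 1.0e-06).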
